A study of Sus scrofa with 9 samples.

Results

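Autophagy initiation and receptor genes were followed through heat shock and recovery in cells labelled as porcine immature Sertoli cells. The set had 10 genes looked up by symbol: ULK1, WIPI1, BECN1, ATG5, ATG7, MAP1LC3B, GABARAPL1, SQSTM1, NBR1 and BNIP3. All 10 were found among 20681 genes with values, 9 by the symbol in the deposited table and BECN1 through its gene identifier in a reference table of gene names. RNA sequencing of total RNA gave 9 libraries, 3 in each of 3 groups. Every group held cells from testis of 80 to 90 days of gestation, grown at 37 °C under 5% CO2 in Minimum Essential Medium with 10% fetal bovine serum and seeded 6 h before treatment. The control group was sampled ahead of any heat. Heat at 43 °C lasted 0.5 h, and HS0.5 is the sample drawn straight after it (recovery of 0 h), while HS0.5-R36 is the sample drawn after that heat plus 36 h back at 37 °C. No unheated cells of the 36 h time point are among the 9 libraries, so heat and time in culture cannot be told apart in the HS0.5-R36 group. The labels do not say whether the 3 libraries of a group came from separate cultures or animals, so each p-value reflects sample-to-sample spread alone, possibly of technical origin.

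Autophagy encloses cytoplasm in a double membrane, the autophagosome, and delivers it to the lysosome. The ULK1 kinase complex starts the process, a lipid kinase complex built on BECN1 marks the membrane with phosphatidylinositol 3-phosphate, and WIPI proteins bind that lipid. ATG7 and ATG5 belong to the ubiquitin-like reactions that attach ATG8 proteins (MAP1LC3B, GABARAPL1) to the membrane, where receptors such as SQSTM1, NBR1 and BNIP3 dock with their cargo. Sertoli cells use this route to clear their own damaged proteins and mitochondria. Transcript levels alone do not measure how much cargo is degraded, since several of these proteins are themselves consumed by the process.

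Levels are FPKM (fragments per kilobase of gene length, scaled to the size of the library). Reads per library, recovered from the FPKM, came to between 18110565 and 21034021. Library sizes implied by the FPKM were 0.902 to 0.973 times those reads before recovery (control and HS0.5) and 1.17 to 1.19 times after it, a scaling that the sources used here do not describe. Control replicate 2 stood apart from the other controls, with r = 0.974 and 0.971 against 0.994 between replicates 1 and 3 (Pearson r over genes, on log2(FPKM + 1)). Of 11 Sertoli cell markers, 8 were found, and SOX9, WT1, AMH and INHBB were present in every library, whereas INHA, DHH, KITLG and NR5A1 were at or near 0. Differences below are on the log2(FPKM + 1) scale, which understates the change of low genes, and were tested with limma, two-sided and adjusted over 11479 genes by the Benjamini-Hochberg method, with calls at an adjusted p under 0.05. These are bulk RNA samples, in which fewer cells of a type and less RNA per cell cannot be told apart.

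After 36 h of recovery, 8 of the 10 genes were higher than in control and 2 were lower, and the libraries of the groups did not overlap for any of the 10. Over all genes tested, limma called 63.1% in this comparison, 28.5% higher and 34.6% lower, and groups stood apart for 30.5% upward and 36.4% downward. Without control replicate 2 the counts were 8 higher and 1 lower, since ATG7 no longer passed (limma adjusted p = 0.093). Rescaling the libraries to the same summed FPKM gave 8 higher and 0 lower, since neither ATG5 nor ATG7 passed. WIPI1, GABARAPL1, ULK1 and NBR1 differed most, at 5.00, 3.48, 3.23 and 3.04 times the control mean. These were the 4 members called with a ratio of means of at least 2, a class that held 11.5% of all genes. With libraries rescaled to the same summed FPKM, the class held 7 members, BECN1, BNIP3 and SQSTM1 in addition, and 19.3% of all genes. SQSTM1, BNIP3, BECN1 and MAP1LC3B were higher by 1.38 to 1.79 times, and ATG5 and ATG7 stood at 0.755 and 0.769 of control. At the end of heat itself limma called none of the 10. The median difference of the 10 genes was 0.73 at 36 h, beside -0.06 over all genes, and -0.06 at the end of heat, beside -0.01 over all genes. Over 77 other tested genes of the pathway and its regulation the median was 0.15 at 36 h. The members were chosen with earlier results of these data known, so their contrast with all genes may partly reflect that choice.

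**Figure D1:**
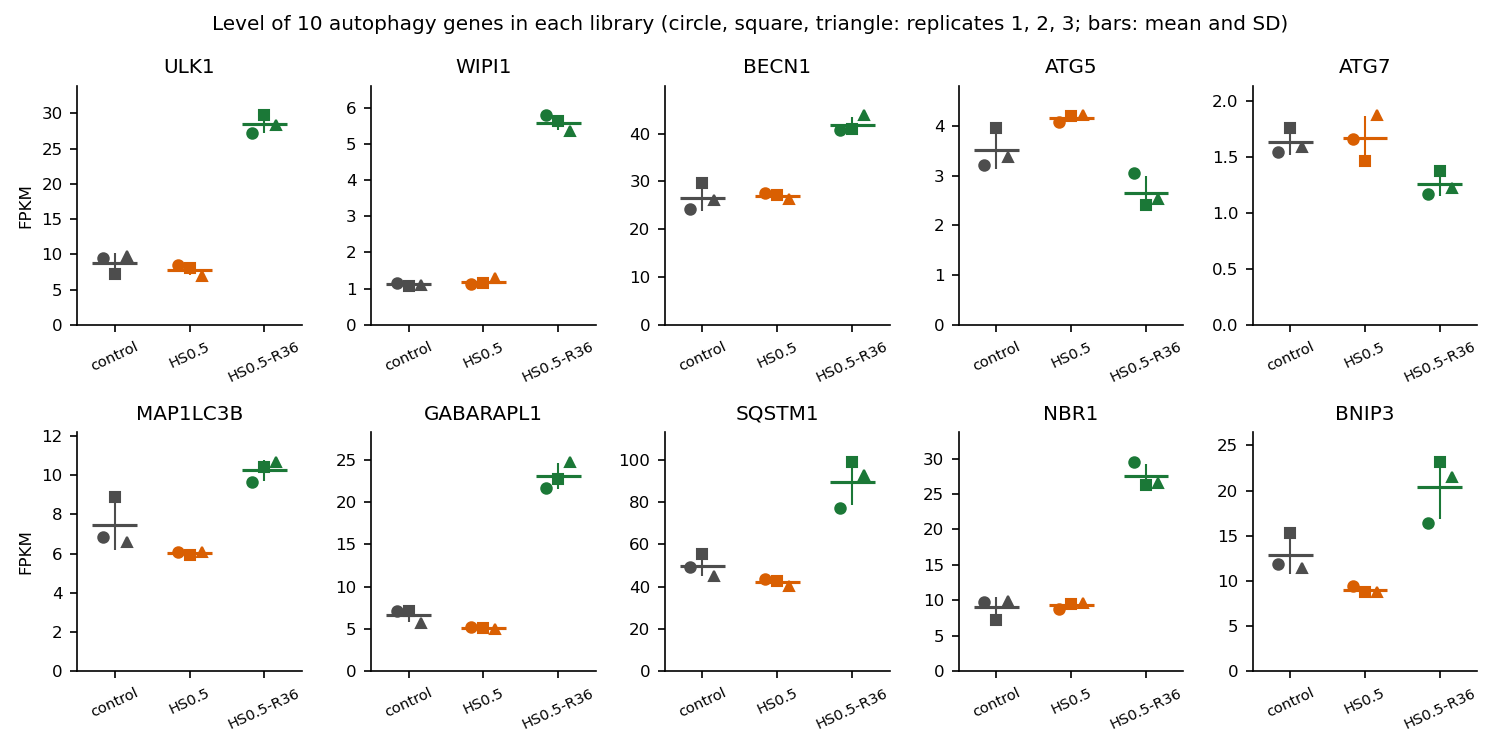
FPKM of each of the 10 genes (y axis from 0, its own range in each panel) in the control, HS0.5 and HS0.5-R36 groups (x axis). Circles, squares and triangles are replicates 1, 2 and 3, and bars are the mean and SD. The 3 HS0.5-R36 libraries lie above all 6 others for 8 genes and below all 6 others for ATG5 and ATG7.

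ULK1 encodes the serine/threonine kinase that starts autophagosome formation and is itself controlled by the nutrient kinases mTORC1 and AMPK. It is ENSSSCG00000009742, on the minus strand of chromosome 14 from 23423696 to 23448138 (the build is not stated, and positions overlap the genes of the Sscrofa11.1 reference table). Its FPKM were 9.43, 7.26 and 9.69 in control, 8.51, 8.04 and 6.91 in HS0.5, and 27.2, 29.7 and 28.4 after recovery. Control and HS0.5 libraries overlapped, and every HS0.5-R36 library was far above both. ULK1 rose by 1.60 ± 0.11 (SE) against control, rank 158 from the top of 11479 genes (limma adjusted p = 4.3e-06), and by 1.74 against HS0.5 (limma adjusted p = 2.1e-06). At the end of heat its difference was -0.15, with a 95% interval of -0.40 to 0.11.

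The paralogue ULK2, a kinase with a partly shared role, had means of 12.6 ± 0.378 FPKM in control, 11.1 ± 0.139 in HS0.5 and 15.0 ± 0.898 after recovery (SD, n = 3). Within each library the log2 ratio of ULK1 to ULK2 does not depend on how libraries were scaled. It was -0.44, -0.74 and -0.40 in control, -0.40, -0.45 and -0.69 in HS0.5, and 0.96, 0.93 and 0.87 after recovery. Transcripts of ULK2 thus exceeded those of ULK1 per length in all 6 control and HS0.5 libraries, and the order was the other way round in all 3 libraries after recovery. The difference of 1.45 between HS0.5-R36 and control gave p = 0.10 in an exact two-sided permutation test, the smallest that 3 against 3 libraries allow, and 0.20 when adjusted over the 36 ratio and share tests.

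BECN1 and WIPI1 act at the lipid step that follows. BECN1 (Beclin 1) holds together the class III phosphatidylinositol 3-kinase complexes. This gene, ENSSSCG00000017386 on the plus strand of chromosome 12 from 20041956 to 20054373, had the second highest level of the set in all 3 groups. Its FPKM were 24.2, 29.6 and 26.1 in control, 27.6, 27.1 and 26.3 in HS0.5, and 40.8, 41.0 and 43.9 after recovery. Control and HS0.5 were interleaved, and the recovery libraries stood above both with little spread. BECN1 rose by 0.64 ± 0.09 against control, to 1.57 times its mean (limma adjusted p = 0.00016), and by 0.61 against HS0.5 (limma adjusted p = 0.00019).

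WIPI1 encodes a propeller protein that binds phosphatidylinositol 3-phosphate on the forming autophagosome. It lies at ENSSSCG00000017260 on the plus strand of chromosome 12, from 11715318 to 11752021. FPKM were 1.17, 1.08 and 1.11 in control, 1.12, 1.16 and 1.30 in HS0.5, and 5.80, 5.63 and 5.37 after recovery. These low levels rest on 93 to 110 recovered reads per library before recovery and 558 to 669 after it. From the bottom of the set WIPI1 thus moved above both ATG5 and ATG7, with no library of the earlier groups near the recovered ones. Its mean was 5.00 times that of control, the highest ratio of the 10, and the difference of 1.64 ± 0.07 ranked 142 among all genes (limma adjusted p = 3.9e-07).

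WIPI2, the family member that recruits the conjugation machinery, did not pass the test, at a difference of 0.03 against control (limma adjusted p = 0.84), but did under rescaling to the same sum (0.35, limma adjusted p = 0.015). The log2 ratio of WIPI1 to WIPI2 was -2.99, -3.40 and -2.90 in control, -2.97, -2.91 and -2.54 in HS0.5, and -0.62, -0.86 and -0.94 after recovery. WIPI2 remained the more abundant transcript in all 9 libraries, but the gap between them was smaller in every recovered library than in any other. The ratio was higher by 2.29 than in control (exact two-sided permutation p = 0.10, the smallest possible).

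ATG7 and ATG5 were the members with lower levels after recovery. ATG7 encodes the E1-like enzyme that activates both ATG12 and the ATG8 proteins, and the gene, ENSSSCG00000011575, spans 67417938 to 67707660 on the plus strand of chromosome 13. Its FPKM were 1.54, 1.76 and 1.59 in control, 1.66, 1.47 and 1.87 in HS0.5, and 1.17, 1.37 and 1.22 after recovery. The recovered libraries were lowest, without overlap but by a margin of the same order as the spread. ATG7 fell by 0.22 ± 0.09 against control (limma adjusted p = 0.045) and by 0.24 against HS0.5 (limma adjusted p = 0.033).

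ATG5 is joined to ATG12 in the complex that directs ATG8 proteins to the membrane. The gene, ENSSSCG00000004370, runs from 72270799 to 72520453 on the minus strand of chromosome 1. Its FPKM were 3.22, 3.96 and 3.37 in control, 4.08, 4.20 and 4.21 in HS0.5, and 3.05, 2.40 and 2.52 after recovery. ATG5 was the only member whose HS0.5 libraries all lay above control, and its recovered libraries all lay below. The difference at the end of heat, 0.20 (95% interval -0.02 to 0.41), did not pass the test (limma adjusted p = 0.19). After recovery ATG5 fell by 0.31 ± 0.09 against control (limma adjusted p = 0.019) and by 0.50 against HS0.5 (limma adjusted p = 0.0013).

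The calls of both falls against control depend on how the libraries are scaled, whereas for the 8 rises the calls held and the sizes moved. When each library was rescaled to the same summed FPKM (TPM), which moved the median of all genes up by 0.30, ATG5 differed from control by -0.04 (limma adjusted p = 0.68) and ATG7 by -0.02 (limma adjusted p = 0.87). The same rescaling took MAP1LC3B from 0.42 to 0.74, BECN1 from 0.64 to 0.98 and BNIP3 from 0.62 to 0.95, and quantile normalization took SQSTM1 from 0.83 to 1.39 and BECN1 to 1.06. The ATG5 call against control was also lost without HS0.5-R36 replicate 2 (limma adjusted p = 0.074) or replicate 3 (limma adjusted p = 0.064). For ATG7 the call against control held in 5 of 20 alternative fits. Each of 6 libraries ended it when left out: every control library (limma adjusted p = 0.064, 0.093 and 0.076 without replicates 1, 2 and 3) and every HS0.5-R36 library (0.12, 0.052 and 0.11); so did leaving out HS0.5 replicate 1 (0.063). Against HS0.5, the ATG5 call held in all 20 fits, and that of ATG7 in 12 of 20, with losses under rescaling (limma adjusted p = 0.72), without HS0.5 replicate 1 or 3 (0.073 and 0.12) and without HS0.5-R36 replicate 1 or 3 (0.087 and 0.088). The ratio of ATG5 to ATG7 within a library was 1.11 ± 0.06 in control and 1.08 ± 0.29 in HS0.5-R36 on the log2 scale (SD, n = 3), and these groups overlapped.

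MAP1LC3B and GABARAPL1 are ATG8 proteins, the small ubiquitin-like tags that coat the autophagosome and bind receptors. MAP1LC3B (LC3B) is the usual marker of autophagosomes. The gene, ENSSSCG00000002655, lies on the minus strand of chromosome 6 from 1915387 to 1941077. Its FPKM were 6.83, 8.90 and 6.58 in control, 6.06, 5.95 and 6.06 in HS0.5, and 9.66, 10.4 and 10.7 after recovery. Control replicate 2 came close to the recovered libraries, and all HS0.5 libraries were below every control. MAP1LC3B rose by 0.42 ± 0.10 against control (limma adjusted p = 0.0061), the smallest of the 8 rises, and by 0.68 against HS0.5 (limma adjusted p = 0.00037).

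GABARAPL1 belongs to the GABARAP branch of the family. The gene, ENSSSCG00000000645, lies on the minus strand of chromosome 5 from 61757488 to 61767593. Its FPKM were 7.08, 7.11 and 5.70 in control, 5.24, 5.12 and 4.96 in HS0.5, and 21.7, 22.8 and 24.8 after recovery. Every HS0.5 library was below every control library, and the recovered libraries were far above all others. GABARAPL1 rose by 1.66 ± 0.09 against control, rank 133 of 11479 (limma adjusted p = 1.2e-06). Against HS0.5 its rise of 1.98, to 4.52 times that mean, was the largest of the 10 on the log2 scale (limma adjusted p = 3.9e-07).

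The make-up of the ATG8 family, as listed, was another after recovery. GABARAPL1 supplied 27.7%, 22.7% and 25.2% of the summed FPKM of the 6 ATG8 genes in the control libraries, 24.9%, 26.3% and 24.8% in HS0.5, and 48.6%, 46.6% and 48.3% after recovery. MAP1LC3B, the largest or second largest share before recovery at 28.1% ± 1.20 in control and 29.9% ± 0.902 in HS0.5, was 21.2% ± 0.397 in HS0.5-R36 (SD, n = 3). MAP1LC3A and GABARAPL2 had 24.6% and 22.1% in control and 16.2% and 14.6% after recovery. Each of these 4 shares stood apart between HS0.5-R36 and control (exact two-sided permutation p = 0.10, the smallest possible, and 0.20 when adjusted). Shares add up to a whole, so a larger GABARAPL1 share makes the others smaller, and these are not 4 separate results. MAP1LC3B had a smaller share after recovery although its mean FPKM was 1.38 times that of control. In FPKM, MAP1LC3A and GABARAPL2 differed from control by 0.24 and 0.23 and did not pass the test (limma adjusted p = 0.16 and 0.23). Both passed under rescaling to the same sum (0.55 and 0.54, limma adjusted p = 0.0039 and 0.0083) and without control replicate 2 (0.36 and 0.39, limma adjusted p = 0.027 and 0.033). GABARAP was listed at 0 except for 0.131 in HS0.5 replicate 3 and 0.0964 in HS0.5-R36 replicate 1, and MAP1LC3C was listed at 0 to 0.0471, so both added almost nothing to these sums. GABARAP is known as a widely expressed gene, and whether its 0 is a true level or a gap in counting was not tested. The shares are therefore of the FPKM as listed and would be lower with uncounted GABARAP reads, whereas the ratio of GABARAPL1 to MAP1LC3B does not use that gene. The log2 ratio of GABARAPL1 to MAP1LC3B was 0.05, -0.32 and -0.21 in control, -0.21, -0.22 and -0.29 in HS0.5, and 1.17, 1.13 and 1.21 after recovery.

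**Figure D2:**
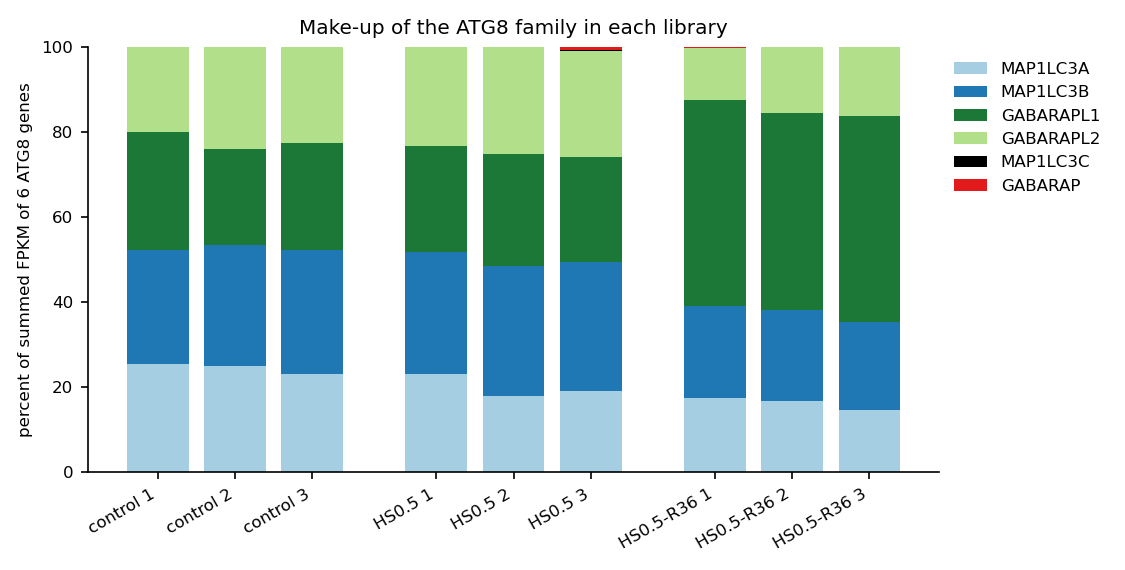
Share of each ATG8 gene in the summed FPKM of the 6 genes of the family (y axis, percent) in each of the 9 libraries (x axis). The GABARAPL1 segment covers 22.7% to 27.7% of the control libraries and 46.6% to 48.6% of the HS0.5-R36 libraries.

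SQSTM1, NBR1 and BNIP3 are receptors that link cargo to ATG8 proteins. SQSTM1 (p62) gathers ubiquitin-tagged proteins and also binds KEAP1, the inhibitor of the antioxidant factor NRF2. It is ENSSSCG00000014016 on the minus strand of chromosome 2 from 78752768 to 78784256, and had the highest level of the set in all 9 libraries. Its FPKM were 49.5, 55.4 and 45.2 in control, 43.7, 42.6 and 40.2 in HS0.5, and 77.4, 99.1 and 92.7 after recovery. All HS0.5 libraries were below every control, and recovered libraries were higher than both groups but spread widely. SQSTM1 rose by 0.83 ± 0.11 against control (limma adjusted p = 0.00016) and by 1.06 against HS0.5 (limma adjusted p = 3.0e-05).

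NBR1 works beside SQSTM1 in condensing ubiquitin-tagged cargo. The gene, ENSSSCG00000030211, lies on the minus strand of chromosome 12 from 19755737 to 19788952. Its FPKM were 9.83, 7.27 and 9.97 in control, 8.76, 9.47 and 9.64 in HS0.5, and 29.5, 26.3 and 26.6 after recovery. The earlier groups overlapped fully, and the recovered libraries were all above both. NBR1 rose by 1.52 ± 0.11 against control, rank 195 of 11479 (limma adjusted p = 5.7e-06), and by 1.47 against HS0.5 (limma adjusted p = 5.7e-06). The log2 ratio of NBR1 to SQSTM1 within a library was -2.48 ± 0.39 in control, -2.18 ± 0.13 in HS0.5 and -1.70 ± 0.28 after recovery (SD, n = 3). SQSTM1 was the more abundant in every library, by a smaller margin after recovery than in either earlier group (exact two-sided permutation p = 0.10 against each, the smallest possible).

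BNIP3 encodes a receptor of the outer mitochondrial membrane that brings mitochondria to the autophagosome and is known as a target of the hypoxia factor HIF1. Its gene, ENSSSCG00000024388, lies on the minus strand of chromosome 14 from 140362127 to 140371881. The FPKM were 11.8, 15.3 and 11.4 in control, 9.42, 8.79 and 8.78 in HS0.5, and 16.5, 23.2 and 21.5 after recovery. Heated libraries were below every control, and recovered ones were above, although HS0.5-R36 replicate 1 came close to control replicate 2. BNIP3 rose by 0.62 ± 0.14 against control (limma adjusted p = 0.0037) and by 1.08 against HS0.5 (limma adjusted p = 0.00012).

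BNIP3L (NIX), its paralogue and a fellow mitophagy receptor, was also higher after recovery. It went from 4.30 ± 0.464 FPKM in control and 4.82 ± 0.492 in HS0.5 to 9.62 ± 1.01 after recovery (SD, n = 3), a rise of 1.00 ± 0.11 against control (limma adjusted p = 3.8e-05). The log2 ratio of BNIP3 to BNIP3L was 1.40, 2.02 and 1.29 in control, 1.12, 0.87 and 0.73 in HS0.5, and 0.61, 1.35 and 1.26 after recovery. It was lower in every HS0.5 library than in any control (exact two-sided permutation p = 0.10, the smallest possible), while recovered libraries overlapped both groups.

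At the end of heat, limma called none of the 10 members, where it called 3.62% of all genes tested, and voom on recovered reads called none either. At an unadjusted p under 0.05 there were 3 members, all lower: BNIP3 at -0.46 (95% interval -0.78 to -0.14, limma adjusted p = 0.095), GABARAPL1 at -0.32 (-0.53 to -0.11, adjusted p = 0.089) and MAP1LC3B at -0.25 (-0.49 to -0.02, adjusted p = 0.15). Together with SQSTM1 these were the 4 members whose HS0.5 libraries all lay below control, an arrangement found for 20% of all genes, and ATG5 was the 1 member in the opposite arrangement, found for 20.5%. Without control replicate 3, the GABARAPL1 difference of -0.41 passed the test (limma adjusted p = 0.044). With libraries weighted by their quality, limma called 6 members, ULK1, GABARAPL1, SQSTM1, MAP1LC3B and BNIP3 lower and ATG5 higher, and 4378 genes in all. For WIPI1, BECN1, NBR1 and ATG7 the differences were between 0.02 and 0.05, with 95% intervals from -0.21 to 0.31.

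The comparison of HS0.5-R36 with HS0.5 follows the cells from the end of heat through recovery, and shares the recovered libraries with the comparison against control. It called 8 members higher and 2 lower, where 63.8% of all genes were called, 28.8% higher and 35% lower. All 10 stood apart between these groups, an arrangement found upward for 33.6% of all genes and downward for 41.6%. Members called with a ratio of means of at least 2 were 6 (GABARAPL1, WIPI1, ULK1, NBR1, BNIP3 and SQSTM1), a class that held 13.3% of all genes. The median difference of the 10 was 1.07, beside -0.07 over all genes and 0.18 over 77 other tested genes of the pathway and its regulation. This contrast too may partly reflect the choice of members with earlier results known. SQSTM1 and BNIP3 reached a ratio of means of at least 2 here but not against control. They stood at 2.13 and 2.26 times the HS0.5 mean against 1.79 and 1.59 times control, although under rescaling to the same sum they reached that ratio in both comparisons.

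**Figure D3:**
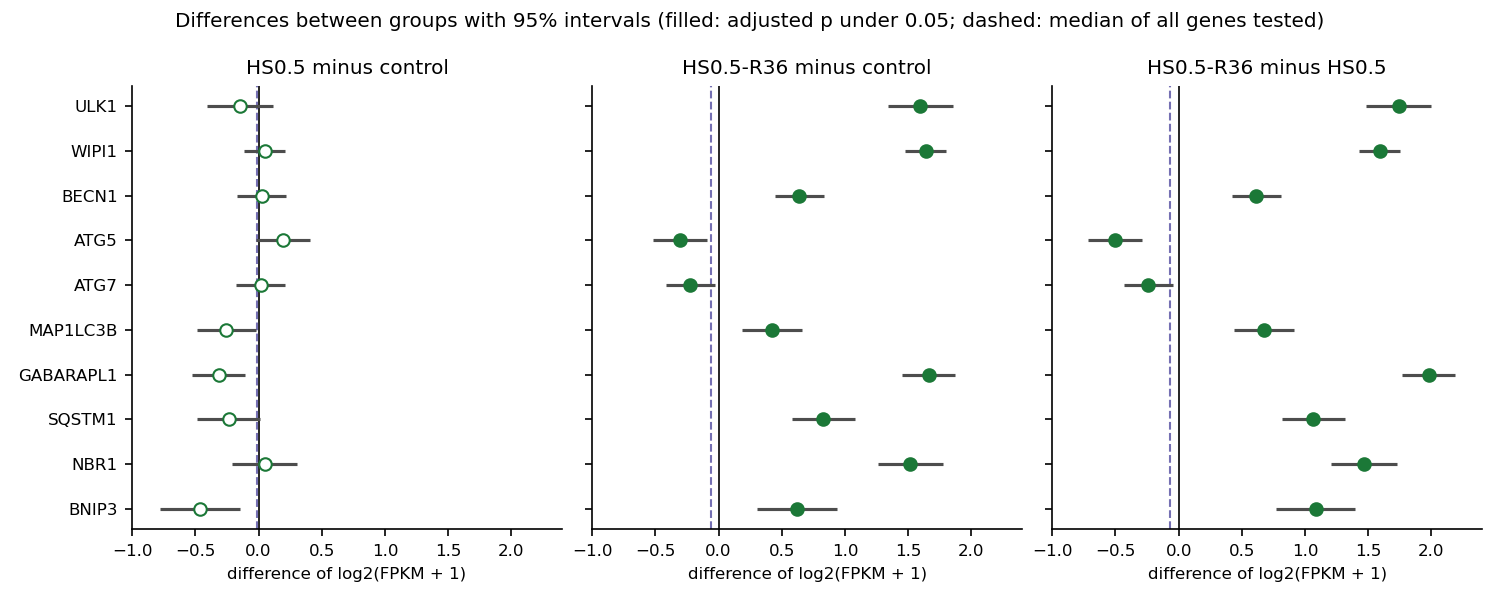
Difference of log2(FPKM + 1) for each of the 10 genes (x axis) with its 95% interval in the 3 comparisons (panels). Filled circles passed limma at an adjusted p under 0.05, and the dashed line is the median of all genes tested. All circles are open at the end of heat, and all 10 are filled in both comparisons with recovered cells, 8 to the right of 0 and 2 to the left.

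**Figure D4:**
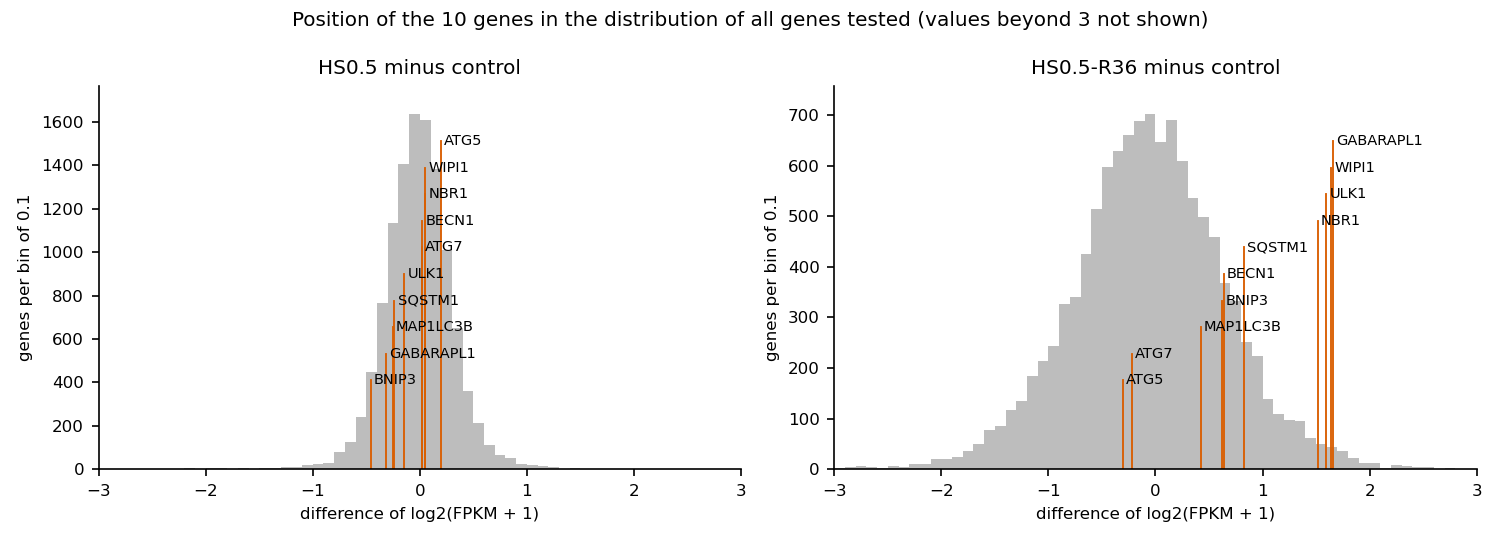
Place of the 10 genes (orange lines, whose height only separates the names) in the distribution of differences of log2(FPKM + 1) over 11479 genes (grey, genes per bin of 0.1), for HS0.5 minus control and HS0.5-R36 minus control. GABARAPL1, WIPI1, ULK1 and NBR1 lie in the upper tail after recovery, at ranks 133 to 195.

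The order of the members by level changed below the top 2. SQSTM1 and BECN1 were highest in all 3 groups. In control, BNIP3, NBR1, ULK1, MAP1LC3B and GABARAPL1 followed at 12.8 ± 2.13, 9.02 ± 1.52, 8.80 ± 1.33, 7.44 ± 1.27 and 6.63 ± 0.804 FPKM (SD, n = 3), and neighbours from NBR1 down to GABARAPL1 did not differ beyond their spread. After recovery, ULK1 and NBR1 (28.4 ± 1.26 and 27.5 ± 1.80 FPKM) came next to BECN1, ahead of GABARAPL1 at 23.1 ± 1.55 and BNIP3 at 20.4 ± 3.50. MAP1LC3B, at 10.2 ± 0.525 FPKM, was clearly below that middle group. At the bottom, WIPI1 was last in control and eighth after recovery, above ATG5 and ATG7. Among all genes tested, ULK1 moved from percentile 52.3 of the mean level in control to 87.0, and NBR1 from 53.1 to 86.4.

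Of 89 other genes of the pathway and its regulation, 84 were found and 77 tested. After recovery 29 of the 77 were higher than control and 13 lower, beside 28.5% and 34.6% of all genes. Rescaling to the same sum gave 51 higher and 3 lower, beside 43.3% and 19.7% of all genes. By role, that rescaling gave 3 higher and 0 lower in the ULK1 complex, 2 and 0 in the other ATG8 genes tested, 7 and 0 in the BECN1 complexes, 5 and 0 in membrane supply, 4 and 1 in conjugation, 4 and 1 in mitophagy, 6 and 1 in fusion, and 13 and 0 among regulators. Against HS0.5, 33 were higher and 13 lower, beside 28.8% and 35% of all genes, and rescaling to the same sum gave 49 and 4, beside 43.3% and 19.6%. At the end of heat 2 were higher and 2 lower, where 3.62% of all genes were called. Other cargo receptors had 6 of 10 tested genes higher than control after recovery and none lower by limma, a direction that held under both rescalings (7 and 0). Against HS0.5 they were 6 higher and 1 lower. CALCOCO1, a receptor for the endoplasmic reticulum, had FPKM of 4.65, 3.87 and 3.97 in control and 17.4, 17.5 and 16.9 after recovery, a rise of 1.83 ± 0.09 (limma adjusted p = 6.3e-07). CCPG1, which also targets that compartment, rose by 0.92 (limma adjusted p = 0.00061).

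Partners of the members in the early steps changed unequally. In the ULK1 complex 2 of the 4 other genes were higher and 1 lower. ATG13, the subunit that anchors the kinase, rose from 5.69 ± 0.318 to 12.9 ± 0.138 FPKM (SD, n = 3), a difference of 1.05 (limma adjusted p = 4.8e-06). ULK2 rose by 0.24 (limma adjusted p = 0.015), a call lost without HS0.5-R36 replicate 2 or 3 (0.061 and 0.060). ATG101 fell by 0.74 (limma adjusted p = 0.011), a call lost under rescaling (-0.40, adjusted p = 0.079), and RB1CC1, the scaffold of the complex, did not pass the test at 0.24 (limma adjusted p = 0.071). RB1CC1 did pass under rescaling to the same sum (0.56, limma adjusted p = 0.0082), with the length trend removed (0.20, limma adjusted p = 0.015), with voom (0.37, limma adjusted p = 0.020) and without control replicate 1 (0.32, limma adjusted p = 0.035). Membrane supply had 3 of 7 genes higher and 2 lower, among them ATG9A, the scramblase of the seed vesicles, higher by 1.33 (limma adjusted p = 5.7e-07) and ATG2A, its lipid transfer partner, higher by 1.32 (limma adjusted p = 2.8e-06). VMP1 and TMEM41B, scramblases of the endoplasmic reticulum, were lower by 0.31 and 0.23, but under rescaling to the same sum their differences turned to 0.03 and 0.10. The call of VMP1 was also lost without control replicate 2 or 3, HS0.5 replicate 2 or HS0.5-R36 replicate 2 or 3 (limma adjusted p = 0.094, 0.051, 0.064, 0.13 and 0.11), and that of TMEM41B without HS0.5-R36 replicate 3 (0.060). In the BECN1 complexes 3 of 8 genes were higher and 1 lower, with AMBRA1, a BECN1 partner, up by 0.35 (limma adjusted p = 0.0071). BCL2L1, whose protein binds and restrains BECN1, was lower by 0.35 (limma adjusted p = 0.018), which became -0.01 under rescaling to the same sum and 0.18 under quantile normalization, and leaving out HS0.5-R36 replicate 1 ended the call (adjusted p = 0.064).

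Around the conjugation enzymes, 2 of 8 genes were higher and 2 lower. ATG4A, a protease that trims ATG8 proteins, rose by 1.25 (limma adjusted p = 1.6e-05). ATG3, the E2-like enzyme that follows ATG7, fell from 24.8 ± 3.82 to 14.7 ± 0.488 FPKM (SD, n = 3), by 0.71 (limma adjusted p = 0.00029). ATG4B fell by 0.41 (limma adjusted p = 0.024), a call lost under rescaling to the same sum (adjusted p = 0.41) and without HS0.5-R36 replicate 1 (0.084) or 3 (0.054). Mitophagy genes beside BNIP3 had 2 of 6 higher and 1 lower: PINK1, the kinase that flags depolarised mitochondria, rose by 1.24 (limma adjusted p = 1.6e-05), BNIP3L rose by 1.00 (limma adjusted p = 3.8e-05), and PHB2, an inner membrane receptor, fell by 1.05 (limma adjusted p = 8.3e-06). Fusion genes had 2 of 10 higher and 3 lower. The SNARE protein YKT6 fell by 0.60 (limma adjusted p = 0.00088), a call lost under quantile normalization (0.052), and TECPR1, a tether of autophagosomes, by 0.52 (limma adjusted p = 0.0069), a call lost under rescaling to the same sum (0.26). Another tether, VPS39, was higher by 0.31 (limma adjusted p = 0.017), a call lost without HS0.5-R36 replicate 1 (0.062).

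**Figure D5:**
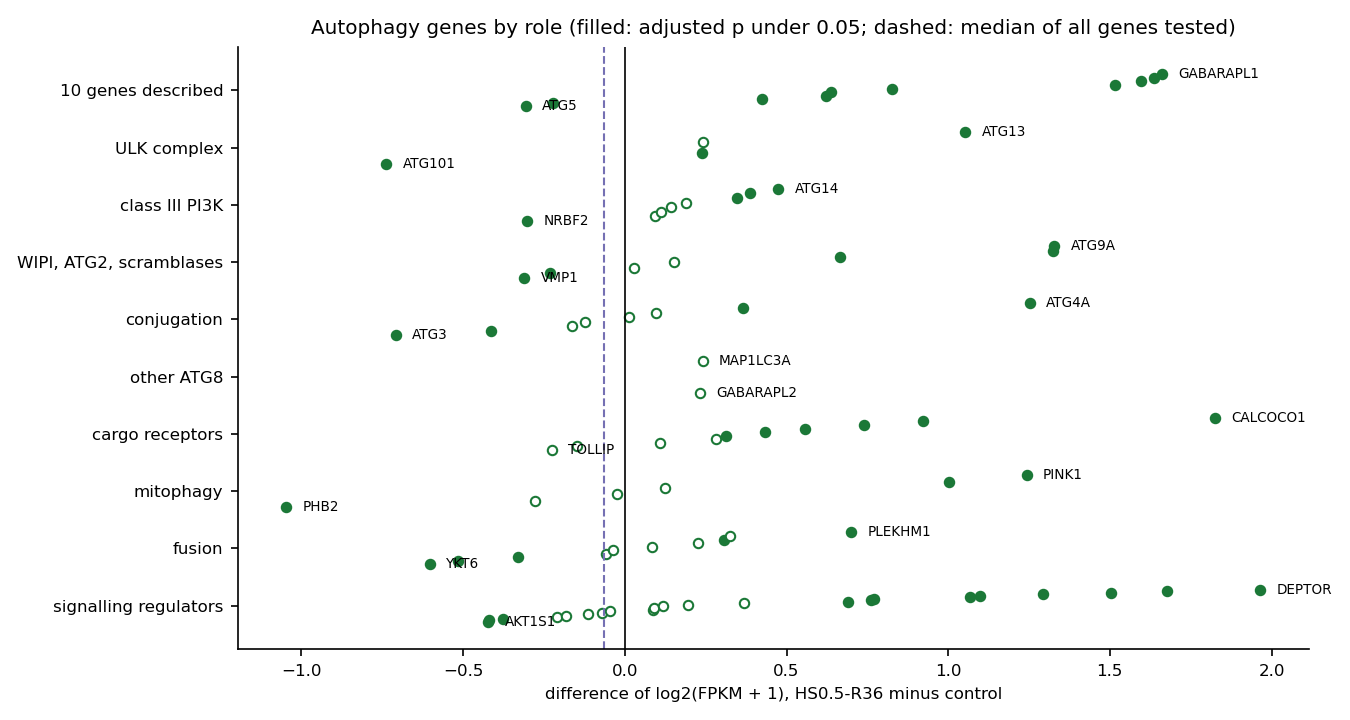
Difference of log2(FPKM + 1) between HS0.5-R36 and control (x axis) for the 10 genes and the other tested genes of the pathway, grouped by role (y axis). Filled circles passed limma at an adjusted p under 0.05, the dashed line is the median of all genes tested, and the outermost genes are named. GABARAPL1 in the top group and CALCOCO1 and DEPTOR below it lie farthest to the right, and PHB2 lies farthest to the left.

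Among upstream regulators, 9 of 22 were higher and 3 lower after recovery, beside 28.5% and 34.6% of all genes. DEPTOR, an inhibitor of mTOR, went from 0.914 ± 0.0903 to 6.47 ± 0.410 FPKM (SD, n = 3), a rise of 1.96 (limma adjusted p = 2.3e-07). MITF, a relative of the lysosome factor TFEB, rose by 1.50 (limma adjusted p = 3.7e-06). AKT1S1 and FOXO1 were both lower by 0.42, calls that were lost when libraries were rescaled to the same sum (limma adjusted p = 0.41 and 0.56). At the end of heat 4 of the 22 passed the test, where 3.62% of all genes did. These 4 are named after their values were seen, apart from DDIT4. DDIT4, a stress-induced inhibitor of mTORC1, rose by 0.63 (limma adjusted p = 0.015), a call lost without HS0.5 replicate 1, 2 or 3 (0.060, 0.055 and 0.071). MITF rose by 0.62 (limma adjusted p = 0.017), TFEB fell by 0.76 (limma adjusted p = 0.012) and SESN2, a stress sensor upstream of mTORC1, fell by 0.43 (limma adjusted p = 0.014). SESN2 lost the call under rescaling to the same sum (limma adjusted p = 0.066). MITF and SESN2 lost it with only the 6 libraries compared (0.055 and 0.069), without control replicate 1 (0.056 and 0.055) or any HS0.5 replicate (0.052 to 0.082 and 0.052 to 0.067), and TFEB without HS0.5 replicate 2 or 3 (0.052 and 0.062).

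SQSTM1 and BNIP3 are known targets of NRF2 and of the hypoxia factor. Lists of other genes of these pathways, which leave out both members, differed from control in both directions after recovery. The share of all genes in this comparison was 28.5% higher and 34.6% lower, and without rescaling the hypoxia counts lie near it. Of 8 NRF2 pathway genes, 1 was higher and 5 were lower than control after recovery, with the enzymes HMOX1 and SRXN1 lower by 1.36 (limma adjusted p = 5.3e-06) and 1.32 (limma adjusted p = 3.1e-05) and GCLM higher by 0.49 (limma adjusted p = 0.0061). Of 11 hypoxia targets, 4 were higher and 3 lower. Rescaling to the same sum gave 2 higher and 4 lower NRF2 genes, and 7 higher and 2 lower hypoxia targets. Those rescaled counts stand beside 43.3% higher and 19.7% lower over all genes. BNIP3L and the demethylase KDM3A were higher, by 1.00 and 0.41 (limma adjusted p = 3.8e-05 and 0.017), the latter lost without HS0.5-R36 replicate 1 (0.063). The hormone gene ADM was lower by 0.75 (limma adjusted p = 0.0011), and VEGFA was lower by 0.26 (limma adjusted p = 0.036) but at 0.08 under rescaling to the same sum, and its call was lost without any 1 library other than control replicate 2 (limma adjusted p of 0.054 to 0.13).

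Patterns most like those of the members were sought among all genes with a symbol and a mean of at least 10 FPKM, by Pearson r of log2(FPKM + 1) over the 9 libraries, which share depth and scaling. For ULK1 the closest were COL8A1, SLC6A6 and PTPRU, with r from 0.997 to 0.999. GABARAPL1 was closest to PSAT1, PNKD and SLC34A1 (0.996 to 0.997), and NBR1 to DAB2, DOCK8 and LRP2 (0.998 to 0.999). SQSTM1 was closest to ORAI2, ALDH2 and LRRC10B (0.994), BECN1 to ENPP6, MGST1 and C1orf194 (0.983 to 0.989), and BNIP3 to ZNF862, SPIRE2 and BTBD2 (0.992 to 0.994). These values describe 3 groups of libraries. The minimum level left out WIPI1, MAP1LC3B, ATG5 and ATG7, both as genes to match and as possible neighbours. The recovered group carried DAB2, LRP2, SLC6A6, DOCK8, LRRC10B, C1orf194 and ZNF862 past the minimum, with means under 10 FPKM in control and HS0.5. ULK1, GABARAPL1 and NBR1 themselves passed it in the same way. DAB2 and LRP2 had means of 4.85 and 2.99 FPKM in control and 21.0 and 25.2 after recovery. High r for these genes therefore rests partly on selecting genes that were high after recovery.

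Markers of Sertoli and of tubule cells differed in the same libraries as the members. The summed FPKM of the 8 Sertoli markers found of 11 was 41.3 to 46.2 in control, 41.5 to 46.2 in HS0.5 and 13.2 to 16.2 after recovery. SOX9, a factor that sets Sertoli identity, fell from 6.47 ± 0.684 to 1.24 ± 0.204 FPKM (SD, n = 3, limma adjusted p = 1.3e-06). For 6 of 8 kidney and Wolffian duct tubule markers found, the sum was 137 to 142 in control, 117 to 131 in HS0.5 and 250 to 258 after recovery. LRP2, an endocytic receptor of tubule cells and a close neighbour of NBR1 in pattern, went from 2.99 ± 1.10 to 25.2 ± 4.27 FPKM. The 5 epithelial markers found of 6 summed to 402 to 623 in control, 386 to 415 in HS0.5 and 455 to 564 after recovery, so control and recovered sums overlapped. Of these 5 genes, 1 was higher than control after recovery and 3 were lower. Rescaling to the same sum gave 1 higher and 2 lower, and quantile normalization 2 and 2. The tight junction gene CLDN8 rose from 17.0 to 135 FPKM (limma adjusted p = 1.3e-07), while the keratin KRT18 fell from 113 to 51.0, EPCAM from 12.5 to 7.58 and the cadherin CDH1 from 25.6 to 20.2 (limma adjusted p = 0.00049, 0.00089 and 0.0035). In every library, the controls included, the tubule and epithelial sums were above the Sertoli sum, and such sums depend on which genes are listed. The part of these cell type markers in the members' differences was not tested.

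The other marker lists had lower sums. Summed FPKM of the germ cell markers (2 of 5 found) was at most 0.330, with DDX4 listed at 0 to 0.0244, and that of endothelial markers (3 of 4 found) at most 1.32, with VWF and CDH5 at or near 0. Leydig cell markers (3 of 6 found) summed to 2.46 to 3.30 in control and 3.59 to 4.95 after recovery, with CYP17A1 at or near 0. Peritubular markers (5 of 6 found) gave 4.67 to 5.13 and 3.41 to 4.38, with MYH11 and PDGFRA at or near 0. Macrophage markers (4 of 5 found) gave 6.34 to 8.56 and 9.76 to 10.4, with CSF1R at or near 0.

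Reads of 7 members could also come from a gene that overlaps them on the opposite strand, since the strand setting of the libraries is not stated. Their partners are ARSG for WIPI1, MGAT4B and a gene without a symbol for SQSTM1, ZCCHC14 for MAP1LC3B, CNTD1 for BECN1, PRDM1 and CRYBG1 for ATG5, VGLL4 for ATG7, and BRCA1 for NBR1. CNTD1 was listed at 0 in control and HS0.5 and at a mean of 0.0109 FPKM in HS0.5-R36. CRYBG1, which overlaps ATG5, went from 5.85 FPKM in control to 7.43 in HS0.5 and then 2.93 after recovery, the same order of groups as ATG5 itself. PRDM1, with the longer overlap of 23587 bases against 4512, went from 1.69 to 0.839 and 1.06 FPKM, another order. The SQSTM1 partner without a symbol had 1.999, 1.51 and 2.61 FPKM in control, HS0.5 and HS0.5-R36, the order of SQSTM1, whereas MGAT4B had 24.4, 19.97 and 19.1. ARSG had 2.14, 1.91 and 3.68 FPKM, higher after recovery as WIPI1 was. BRCA1 had 2.21, 2.43 and 1.90 FPKM, lowest after recovery, where NBR1 was highest. ZCCHC14 had 5.37, 7.25 and 4.82 FPKM and VGLL4 6.83, 6.71 and 7.51 FPKM, orders other than those of MAP1LC3B and ATG7. The part of these genes in the members' values was not tested. ULK1, GABARAPL1 and BNIP3 overlap no other annotated gene.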

How the data were processed

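Per the submitters' processing notes, bcl2fastq made the base calls and HISAT2 2.0.5 the alignments. The authors deposited FPKM per gene, with gene length and position, per the file headers. The product of FPKM and length was a whole number of equal steps in each library (100% of values within 1e-06), which gave the reads per gene. Genes with FPKM of at least 1 in at least 3 libraries (11479) were tested on log2(FPKM + 1) with limma 3.58.1 in R 4.3.3 (empirical Bayes along the intensity trend, 1 fit over 9 libraries). Voom on recovered reads was an alternative. Ratios and shares were compared by exact permutation tests. The script was tested on simulated data, in which far fewer genes were changed than were called after recovery. That test does not measure the share of false calls in these data.

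The members and lists were chosen with earlier results of these data known. Other genes named are, per list and comparison, up to 2 called genes each way with the largest difference and a mean of at least 5 FPKM in the higher group. Libraries were not paired by replicate number, since the labels state no pairing. Alternatives were another pseudocount, filter, scaling, weights or block, and leaving out each library. Positions of 12229 genes could be set beside the Sscrofa11.1 gene of the same symbol, and 98.8% overlapped it. No gene or protein sequences were used here.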

Additional observations from a re-analysis of the deposited data

How the results depend on the processing

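In each of 21 alternative fits the 8 members higher after recovery passed limma in both comparisons with recovered cells. For WIPI1, the fit with FPKM of at least 5 in 3 libraries adds no support. WIPI1 entered that fit only through the recovered libraries (5.37 to 5.80 FPKM), with at most 1.17 FPKM in control and 1.30 in HS0.5. Of 624 refitted member values, 590 kept their side of the threshold, 26 lost a call, 7 gained a call and 1 lost its call and changed sign. The 590 include uncalled values near 0 that changed sign, as for NBR1, BECN1 and ATG7 at the end of heat. Members lower than control after recovery, 2 in the report, were 1 with no filter on low values, with a trend on gene length removed, with voom, with library weights and with only the 6 libraries compared. They were 0 with FPKM of at least 5 in 3 libraries, where ATG5 and ATG7 were not tested, and 0 under both rescalings. Rescaling without the mitochondrial and the 20 most abundant genes turned ATG7 to 0.000971 (limma adjusted p = 0.99). Against HS0.5 the lower members were 0 with FPKM of at least 5, and 1 under both rescalings and with the length trend removed. Leaving out 1 library gave 0 to 2 lower members against control and 1 to 2 against HS0.5. Without control replicate 2 they were 1 and 2.

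At the end of heat, leaving out 1 library gave 0 to 1 member called and 0 to 1 lower, and library weights gave 6 called, 1 higher and 5 lower. Genes called there were 415 in the report, 193 with no filter, 243 with FPKM of at least 5, 201 and 244 under the rescalings, 4378 with weights, 116 with only 6 libraries and 88 to 457 with 1 library left out. With the replicate block they were 221. That block left 1 lower member in each comparison with recovered cells, since ATG7 was lost (limma adjusted p = 0.081 and 0.063), and changed no other member's call. Same-numbered libraries of different groups did not consistently deviate together: over 9 pairs r ran from -0.43 to 0.27, with 3 over 0.1. Pairs of different numbers reached -0.43 and 0.44. With so few libraries in a group, this check cannot decide whether same-numbered libraries shared a batch.

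The rescalings moved the median of all genes after recovery by 0.30 and 0.32 and raised the share of higher among called genes from 45.2% to 68.7% and 70.5%. FPKM of at least 5 moved the median by -0.14 and gave 33.7%. Of 210 ratio and share values, 204 moved by less than the spread. Adding 1 to each FPKM moved the other 6: GABARAPL1 to MAP1LC3B against HS0.5 to 1.30, WIPI1 to WIPI2 to 1.61 against control and 1.38 against HS0.5, the MAP1LC3B share to -5.22 and -6.15 percentage points, and the GABARAPL1 share against HS0.5 to 21.0. The cause of these changes was not tested. Low read numbers limit WIPI1, with 93 to 110 reads before recovery.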
